A study of Mus musculus with 2 samples.

Results

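The myeloid C-type lectin receptors described here are Clec4d, Clec4e, Clec4n, Clec7a, Clec4a1, Clec4a2, Clec4a3, Clec5a and Clec12a. They were chosen by gene symbol from the 32285 gene rows of each of 2 single-cell matrices. Of the 9 symbols, 8 had a row in both matrices, and Clec7a, the receptor for fungal beta-glucan, was not analysed here. The leukocytes came from BALB/cAnNCrl mice with liver metastases of 4T1, a mouse mammary carcinoma line, some days after infusion of the hepatic artery with vehicle or with CBL0137, a curaxin that binds DNA and traps the histone chaperone FACT. The study's methods speak of CD11b+ cells isolated on magnetic beads from pooled mice, whereas the labels speak of leukocytes, and T cells and B cells were present in both libraries. Each library, one labelled liver and one labelled spleen, pooled 3 groups told apart by an antibody-borne hashtag. The groups were vehicle, a low dose and a high dose of CBL0137, so each group was 1 pooled sample per library, without replicates, and no test between groups was possible.

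The hashtags are shown because every group in the text rests on them. All 3 are 15 bases long and are given as the deposited feature list has them. The group of each comes from the labels. The study's methods list all 3 barcodes but name only A0301 and A0310 where they describe the staining, so the low dose group rests on the labels.
A0301, vehicle: ACCCACCAGTAAGAC
A0305, low dose: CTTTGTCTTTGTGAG
A0310, high dose: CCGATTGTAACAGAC

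The transcripts went against the tissue labels. Clec4f, a lectin of Kupffer cells, the macrophages that live in liver, had 3296 UMIs or 734 UMIs per 1000000 UMIs (CPM) in the macrophage-like cells of the library whose label says spleen, where endothelial, hepatocyte and 4T1 tumor cell clusters were also found. In the library whose label says liver, none of those clusters was found, and Clec4f had 0 UMIs in 183 macrophage-like cells. The names of the deposited files also gave each library the other tissue. The library whose label says liver is therefore called library L and the one whose label says spleen library S, each result is given for each library on its own, and tissue and library cannot be told apart. Library L held 9591 barcodes, of which 8435 carried 1 hashtag, and library S held 4830, of which 2988 did. The groups summed to between 17333148 and 26508853 unique molecular identifiers (UMIs) in the former and between 7130127 and 10589251 in the latter, and 15 barcodes occurred in both libraries.

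C-type lectin receptors are cell-surface proteins with a carbohydrate-recognition fold, and those of myeloid cells sense sugars and lipids of microbes and debris of dead cells. Clec4e (Mincle), Clec4d (MCL) and Clec4n (Dectin-2) signal through the gamma chain Fcer1g, and Clec5a through the adaptors Tyrobp and Hcst, after which the kinase Syk and the adaptor Card9 lead to NF-kB. Clec4a2 and Clec12a carry an inhibitory motif that recruits the phosphatases Ptpn6 and Ptpn11, and Clec4a1 and Clec4a3 are relatives of Clec4a2 in the DCIR group. In neutrophils and monocytes, Clec4e is known as a gene induced by inflammatory signals.

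All 9 genes lie on chromosome 6 (GENCODE M21 annotation of GRCm38, the build called mm10). Clec4a1, Clec4a3, Clec4a2, Clec4n, Clec4d and Clec4e follow each other between positions 122921848 and 123289870, Clec12a and Clec7a lie between 129342691 and 129472779, and Clec5a lies apart at 40574894 to 40585821. The 250 bases before the start of Clec4d (chr6:123261857-123262106, plus strand) and of Clec4e (chr6:123289872-123290121, minus strand) are shown because these neighbours had the highest levels in the same neutrophil clusters. They are RefSeq sequences of GRCm38.p6, written 5′ to 3′ on the strand of the gene. Capitals mark matches on either strand to TTNNGNAA, letters bound by C/EBP factors, and to GAGGAA, letters bound by PU.1.
Clec4d: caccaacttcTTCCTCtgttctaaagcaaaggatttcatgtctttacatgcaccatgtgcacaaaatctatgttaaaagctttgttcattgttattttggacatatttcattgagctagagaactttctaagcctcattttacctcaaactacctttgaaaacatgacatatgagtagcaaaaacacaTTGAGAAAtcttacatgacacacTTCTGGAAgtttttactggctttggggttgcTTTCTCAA
Clec4e: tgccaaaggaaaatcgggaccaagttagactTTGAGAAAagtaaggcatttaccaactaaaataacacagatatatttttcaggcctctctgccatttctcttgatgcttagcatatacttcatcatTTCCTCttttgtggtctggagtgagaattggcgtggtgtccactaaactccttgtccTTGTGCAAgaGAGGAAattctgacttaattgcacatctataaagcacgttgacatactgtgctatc

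The C/EBP letters began 62, 39 and 8 bases before the start of Clec4d and 219 and 66 bases before that of Clec4e. The PU.1 letters began 240 bases before the start of Clec4d and 123 and 56 bases before that of Clec4e. These letters are common: of 32851 windows of the same length, 36.8% held the C/EBP letters and 23.3% the PU.1 letters. Neither the AP-1 letters TGANTCA, in 6.75% of windows, nor the NF-kB motif, in 1.41%, were in the windows of Clec4d and Clec4e.

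Clec4a1 (chr6:122921598-122921847) and Clec4a3 (chr6:122952394-122952643), both on the plus strand and each before a start in the GENCODE annotation, are shown because their levels moved together more closely than those of any other pair of members. Capitals mark the longest run of letters that the windows of any pair of these genes shared, 17 bases, which holds 1 match to the PU.1 letters. Among the other pairs of genes, the longest shared run was 12 bases, in Clec5a and Clec4a2. No window was available for Clec4n, so no pair with it was compared.
Clec4a1: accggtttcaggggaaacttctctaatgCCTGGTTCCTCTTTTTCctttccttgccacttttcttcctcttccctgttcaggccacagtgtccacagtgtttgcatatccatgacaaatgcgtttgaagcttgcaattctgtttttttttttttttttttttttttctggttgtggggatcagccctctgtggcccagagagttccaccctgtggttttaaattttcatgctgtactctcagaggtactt
Clec4a3: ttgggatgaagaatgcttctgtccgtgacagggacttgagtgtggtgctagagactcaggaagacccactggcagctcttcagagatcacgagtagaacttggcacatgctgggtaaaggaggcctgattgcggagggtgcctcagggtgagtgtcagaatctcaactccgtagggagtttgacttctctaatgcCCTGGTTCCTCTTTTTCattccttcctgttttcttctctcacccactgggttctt

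The members fell into 3 patterns over the cell classes, which are clusters called "X-like" after marker genes. Levels are summed UMIs over all UMIs of a class and group, as CPM. Intervals in brackets are exact 95% intervals, Poisson for a level, conditional binomial for a ratio and Clopper-Pearson for a share, and they cover counting error only. Levels were not corrected for transcript length, so a level is compared between classes and groups and not between genes.

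Clec4d and Clec4e were highest in neutrophil-like cells. In library L, Clec4d in vehicle cells was at 174 CPM in neutrophil-like cells, 40.2 CPM in monocyte-like cells, 15.7 CPM in dendritic cell-like cells and 9.93 CPM in granulocyte progenitor-like cells, with 0 UMIs in macrophage-like cells, which allows up to 14.9 CPM. In library S, the level of Clec4d in vehicle cells was 173, 51.6 and 11.3 CPM in neutrophil-like, monocyte-like and progenitor-like cells, but 59.7 CPM in macrophage-like cells, and dendritic cell-like cells had 0 UMIs. The neutrophil-like level stood above every other class, and its interval overlapped none of theirs.

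Clec4e in vehicle cells of library L was at 237 CPM in neutrophil-like, 86.0 CPM in monocyte-like and 29.2 CPM in progenitor-like cells, and in library S at 357, 162 and 46.6 CPM. Dendritic cell-like cells had 19.6 and 33.6 CPM, and macrophage-like cells had 0 UMIs in library L and 37.6 CPM in the other. Neutrophil-like cells were 34.5% of the assigned cells of library L and held 89.1% of its Clec4d UMIs and 85.6% of its Clec4e UMIs. In library S they were 32.6% of cells and held 55.1% and 65.0%, and macrophage-like cells there held 24.9% of the Clec4d UMIs.

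Clec4n, Clec4a1 and Clec4a3 were low in neutrophil-like cells. Clec4n, the receptor for fungal mannans, was highest in macrophage-like cells of both libraries, at 452 CPM [364, 555] and 254 CPM [220.0, 293] in the vehicle groups of libraries L and S. Monocyte-like cells were at 47.9 and 58.0 CPM, dendritic cell-like cells at 55.0 and 84.1 CPM, and neutrophil-like cells at 15.2 and 18.5 CPM. The intervals of monocyte-like and dendritic cell-like cells overlapped in both libraries, so their order was not resolved.

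Clec4a1 was highest in monocyte-like cells of vehicle, at 151 CPM [139, 165] in library L and 298 CPM [261, 339] in library S, against 54.6 and 206 CPM in macrophage-like and 6.45 and 11.3 CPM in neutrophil-like cells. Clec4a3 had the same order, with 248 and 338 CPM in monocyte-like, 149 and 215 CPM in macrophage-like and 30.4 and 6.55 CPM in neutrophil-like cells. In library L, monocyte-like cells were 3.34% of cells and held 79.4% of the Clec4a1 UMIs and 67.4% of the Clec4a3 UMIs. The Clec4n UMIs of that library were divided among neutrophil-like cells with 35.4%, macrophage-like cells with 27.5% and monocyte-like cells with 27.4%. In library S, macrophage-like cells, 9.64% of cells, held 73.6% of the Clec4n, 47.4% of the Clec4a1 and 43.6% of the Clec4a3 UMIs.

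Clec5a and Clec12a were highest in progenitor-like cells among 5 classes, those of neutrophils, progenitors, monocytes, macrophages and dendritic cells, and Clec4a2 was measured in all 5. Clec12a, an inhibitory receptor for uric acid crystals, was highest in progenitor-like cells of vehicle, at 234 CPM [221, 248] and 188 CPM [172, 204], against 127 and 88.8 CPM in neutrophil-like and 89.8 and 108 CPM in monocyte-like cells. Clec5a, an activating receptor of granulocytes and monocytes, was at 101 and 113 CPM in progenitor-like, 72.3 and 59.3 CPM in monocyte-like and 60.2 and 52.4 CPM in neutrophil-like cells. Progenitor-like cells, 10.9% of cells in library S, held 56.8% of its Clec5a and 51.1% of its Clec12a UMIs. The vehicle level of Clec4a2 in library L was 187 CPM in monocyte-like, 181 CPM in progenitor-like, 173 CPM in neutrophil-like, 126 CPM in dendritic cell-like and 109 CPM in macrophage-like cells, and the intervals of the first 3 overlapped. In library S it was highest in macrophage-like cells, at 226 CPM [194, 262], followed by 160 CPM in monocyte-like, 146 CPM in neutrophil-like, 127 CPM in progenitor-like and 96.7 CPM in dendritic cell-like cells.

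Set against neutrophil-like cells of vehicle, Clec4n, Clec4a1 and Clec4a3 were at least 2-fold higher in monocyte-like cells and Clec4d and Clec4e at least 2-fold lower, 3 and 2 of 8 members in each library. Among all genes with at least 50 UMIs over both sides, 49% were at least 2-fold higher and 8.8% at least 2-fold lower in library L, and 41.6% and 8.18% in library S. A higher level in monocyte-like cells was thus common to many genes, while a lower level was not. In library S, Clec4a1 and Clec4a3 reached 50 UMIs through monocyte-like cells alone, and Clec4d through neutrophil-like cells alone.

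Macrophage-like cells of vehicle had the same 3 members at least 2-fold higher in each library, with 3 lower in library L and 2 in library S, against 45.2% of genes higher and 11.1% lower and against 45.6% and 10.5%. The lower ones were Clec4d and Clec4e in both libraries and Clec5a in library L. In library L each had 0 UMIs in macrophage-like cells, counted as 3 UMIs. In both libraries they reached 50 UMIs through neutrophil-like cells alone. In library S, the higher members reached it through macrophage-like cells alone. Dendritic cell-like cells had 2 of 8 members higher and 4 lower in library L and 1 of 6 higher and 3 lower in library S, against 44.9% and 11.4% and against 31.9% and 18%. All lower members again reached 50 UMIs through neutrophil-like cells alone. Among them, Clec5a in both libraries and Clec4d in library S had 0 UMIs in dendritic cell-like cells, counted as 3 UMIs. Progenitor-like cells had 0 of 8 higher and 5 lower, and 2 of 5 higher and 2 lower, against 34.5% and 16.1% and against 45% and 12.4%. The 2 members higher in progenitor-like cells of library S were Clec5a, by 1.11, and Clec12a, by 1.08 on the log2 scale. Of the lower members, Clec4d in both libraries and Clec4n, Clec4a1 and Clec4a3 in library L reached 50 UMIs through neutrophil-like cells alone.

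**Figure D1:**
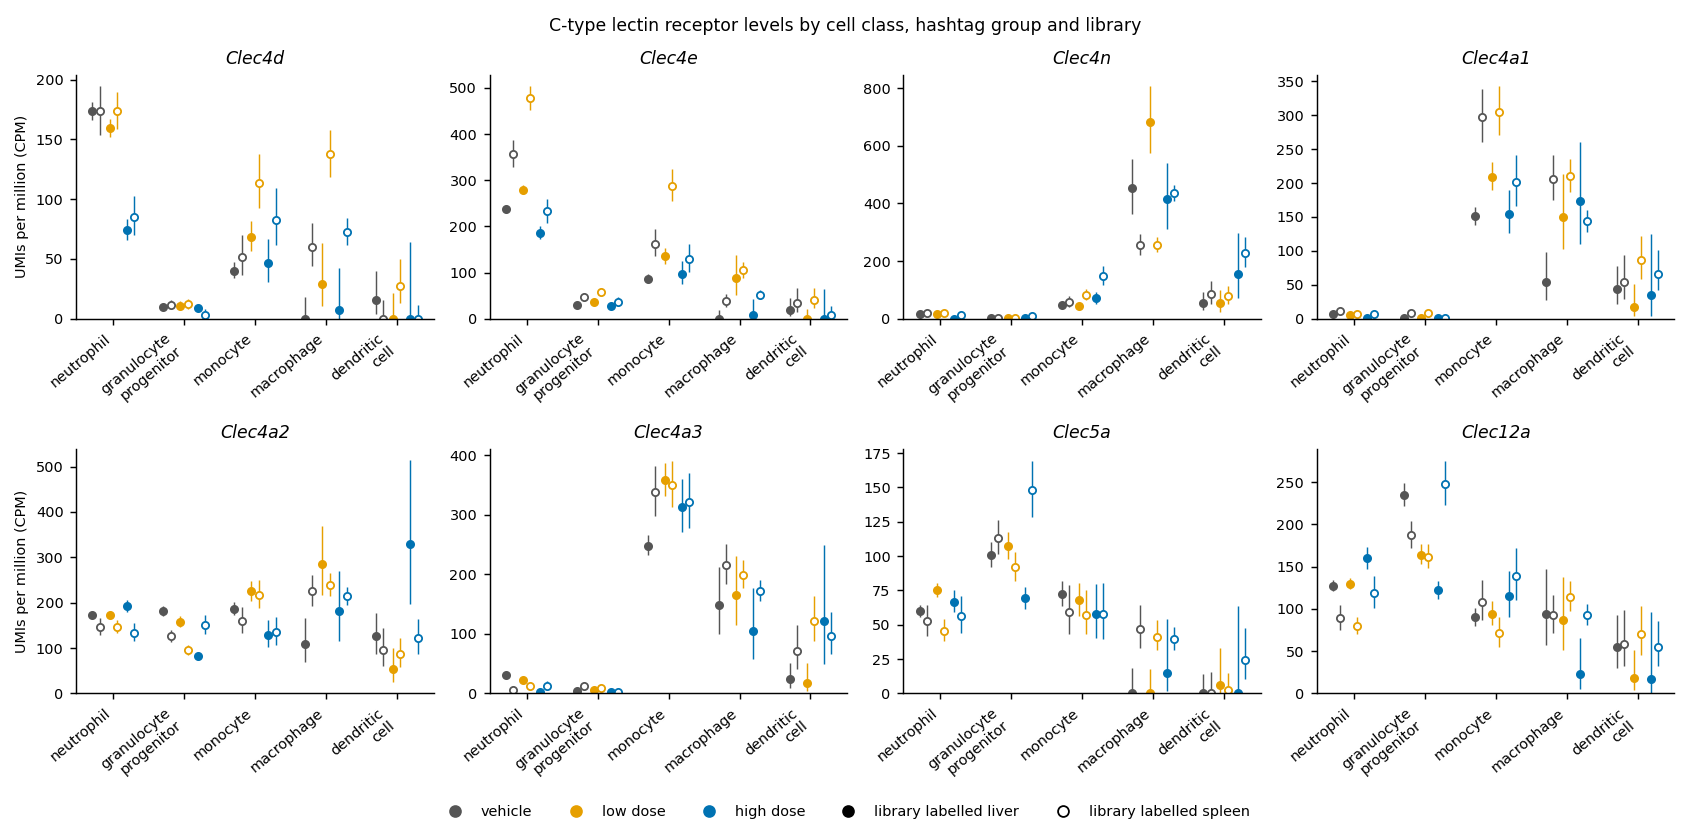
Level of each of the 8 receptors in CPM (y axis, linear from 0) in 5 cell classes (x axis), by hashtag group (color) and library (symbol), with exact 95% Poisson intervals as bars. In the vehicle groups, Clec4d and Clec4e peak in neutrophil-like cells, and Clec4a1 and Clec4a3 in monocyte-like cells. In the same groups Clec4n peaks in macrophage-like cells, at 452 and 254 CPM.

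Dendritic cell-like cells, as named by the marker rule, were few, 43 in library L and 176 in library S. An unnamed cluster of library L (13), with 212 cells, was not counted among them. Like the dendritic cell-like cluster, it had Ppp1r14a, Ckb, H2-Aa, H2-Ab1 and H2-Eb1 among its 10 leading genes. The dendritic cell-like levels of library L therefore depend on the naming rule. Those of library S do so too. Its cluster (7) had 3 of 11 dendritic cell markers raised, against 8 of 11 in library L. In vehicle, its macrophage, erythroid and basophil or mast cell markers each summed above its dendritic cell markers. Over all groups, the dendritic cell-like levels in the 2 libraries were 66.4 and 132 CPM for Clec4n, 125 and 101 CPM for Clec4a2, 33.2 and 100.2 CPM for Clec4a3, 33.2 and 71.4 CPM for Clec4a1, and 37.4 and 61.8 CPM for Clec12a. Clec4d, Clec4e and Clec5a had between 1 and 26 UMIs each per library. In 25 plasmacytoid dendritic cell-like cells of library S, Clec12a was at 216 CPM [154, 294] from 40 UMIs, and each of the other 7 members had at most 1 UMI.

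How low a level can be read was judged from T cell-like cells, and the source of their UMIs was not tested. T cell-like cells, which should lack these receptors, had 0.251 to 1.76 CPM of each member in library L. In the 115 T cell-like cells of library S, the levels were higher, with 41.7 CPM for Clec4a2, 36.5 CPM for Clec4n, 27.8 CPM for Clec4a1, 29.6 CPM for Clec4a3 and 26.1 CPM for Clec4d. All of these UMIs were in the low and high dose groups, and the 19 T cell-like cells of vehicle had 0 UMIs of each member, which allows up to 54.4 CPM. They lay in few cells, since 88.6% of low dose and 82.7% of high dose T cell-like cells had no UMI of any member. The 131 B cell-like cells of library S had 0 UMIs of Clec4n and Clec4a1 and 3 of Clec4a3. Neutrophil-like cells of library S had 17.8, 8.50 and 10.7 CPM of Clec4n, Clec4a1 and Clec4a3 over all groups, below the T cell-like level. Expression and background were not told apart at these levels, and no expression is read from them. Barcodes without a hashtag, 540 and 1627 of them, had 5.58 to 31.9 CPM of each member in library L and 9.85 to 49.3 CPM in the other.

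Counting could blur the DCIR group. Of the 31-base words in the last 500 bases of the transcripts, 14.0% of those of Clec4a2 also occurred in Clec4b1, Clec4a4, Clec4a3 or the unrelated gene Vmn2r76, 2.96% of those of Clec4n occurred in Clec4b1 or Gm44147, and 1.28% of those of Clec4a3 occurred in Clec4b1, Clec4b2, Clec4a4 or Clec4a2. None of the words of the other 6 genes was shared, Clec7a included.

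Which receptors differed in the neutrophils that remained after CBL0137 was asked next. Neutrophil-like cells were 46.0%, 40.3% and 9.31% of the cells of vehicle, low dose and high dose in library L, or 1426, 1287 and 199 cells. In library S they were 36.0%, 43.7% and 12.8%, or 296, 568 and 111 cells. The high dose cells were also deeper, with a median of 18606 UMIs per cell against 4367 in vehicle in library L, and 11077 against 3408 in library S.

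Clec4d was lower at the high dose in both libraries. In library L its levels in vehicle, low dose and high dose neutrophil-like cells were 174, 159 and 74.3 CPM, and in library S 173, 174 and 85.4 CPM. The high dose stood below both other groups, with no overlap of intervals, while vehicle and low dose lay close together. On the log2 scale the high dose differed from vehicle by -1.22 [-1.41, -1.05] and -1.02 [-1.35, -0.70].

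Clec4e was lower at the high dose by less and was highest at the low dose. Its levels were 237, 279 and 186 CPM in library L and 357, 478 and 232 CPM in library S, in the same order of groups, and no intervals overlapped within a library. The log2 ratio to vehicle was -0.35 [-0.46, -0.23] and -0.62 [-0.83, -0.42] at the high dose, and 0.24 [0.16, 0.31] and 0.42 [0.28, 0.56] at the low dose. As a mean over cells the low dose ratio was 0.18 and 0.19, in library S outside that interval. In library S, 1 cluster (12, described below) held 21.0% of low dose and 0.676% of vehicle neutrophil-like cells. The low dose ratios were not weighted for the mix of clusters.

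Clec12a, Clec4a2 and Clec5a had no interval below vehicle at the high dose in either library. Clec12a was at 127, 129.9 and 159.7 CPM in library L and at 88.8, 79.9 and 119 CPM in library S, with the high dose highest in both and log2 ratios to vehicle of 0.33 [0.19, 0.46] and 0.42 [0.08, 0.75]. Clec4a2 was at 173, 173 and 193 CPM and at 146, 147 and 134 CPM, and Clec5a at 60.2, 75.2 and 66.8 CPM and at 52.4, 45.8 and 56.2 CPM. High dose and vehicle differed for Clec4a2 by 0.15 [0.03, 0.27] and -0.12 [-0.41, 0.16], and for Clec5a by 0.15 [-0.06, 0.35] and 0.10 [-0.37, 0.56] on the log2 scale.

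The receptors of monocytes and macrophages were close to 0 in the high dose neutrophil-like cells of library L. Clec4a3 had 363, 255 and 8 UMIs in vehicle, low dose and high dose, or 30.4, 23.0 and 1.99 CPM, a log2 ratio of high dose to vehicle of -3.93 [-5.15, -2.94]. Clec4n had 181, 185 and 3 UMIs, a ratio of -4.34 [-6.63, -2.77], and Clec4a1 77, 66 and 2 UMIs, a ratio of -3.69 [-6.77, -1.79]. The high dose levels of Clec4n and Clec4a1, 0.748 and 0.498 CPM, lay within the range of the T cell-like cells. Marker genes of other cells differed as well, in both directions: the 10 monocyte markers summed to 111, 147 and 65.3 CPM in these groups, with 0, 0 and 1 markers at 0, and the 12 macrophage markers to 216, 198 and 102 CPM, with 0, 2 and 3 at 0. The 7 T cell markers summed to 72.2, 95.4 and 86.5 CPM, with 0 at 0 in each group. The 6 erythroid markers summed to 334, 129 and 26.4 CPM, with 0, 1 and 2 at 0, and the 5 basophil or mast cell markers to 0.754, 1.45 and 94.9 CPM, with 3, 1 and 0 at 0. The part of these cells in the result was not tested.

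Of the 8 members measured in high dose and vehicle neutrophil-like cells of library L, 4 were at least 2-fold lower at the high dose, against 13.2% of the 7427 genes compared, and 0 at least 2-fold higher, against 0.673%. Their median log2 ratio was -0.79, beside -0.34 over all genes. Of these members, Clec4n, Clec4a1 and Clec4a3 reached 50 UMIs through vehicle alone. In library S, 5 members reached 50 UMIs over both sides, of which only Clec4d was at least 2-fold lower, against 4.77% of 3735 genes, and 0 were at least 2-fold higher, against 1.95%, and the medians were -0.12 and -0.06. There the hepatocyte markers in neutrophil-like cells summed to 30.97, 78.1 and 296 CPM in vehicle, low dose and high dose, the macrophage markers to 254, 192 and 463 CPM and the erythroid markers to 245, 5728 and 601 CPM, and their part was not tested. At the low dose, 0 of 8 and 0 of 6 members were past 2-fold, against 1.19% of genes lower and 0.159% higher in library L and 1.05% and 1.33% in library S. The low dose ratio of Clec4n in library S, 0.11, was 1.65 when cells with few genes or over 10% mitochondrial UMIs were left out. Its levels there were not told apart from background.

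**Figure D2:**
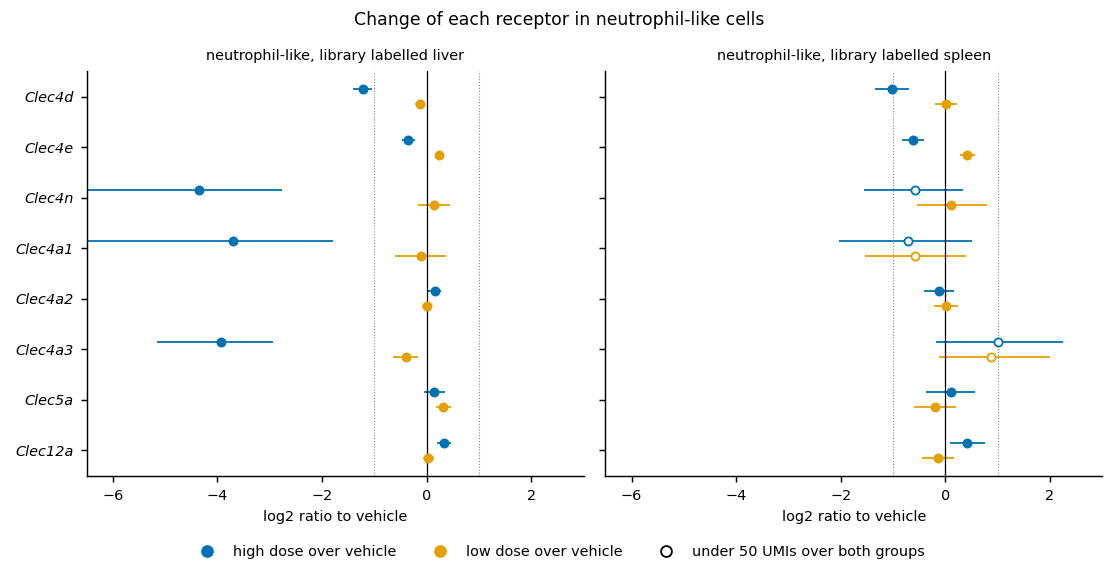
Log2 ratio to vehicle (x axis) of each receptor (y axis) in neutrophil-like cells at the low and high dose (color), 1 panel per library (L left, S right), with exact 95% intervals as bars. Clec4d lies near -1 at the high dose in both libraries, at -1.22 and -1.02, and Clec12a lies above 0 in both.

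The neutrophil-like class held clusters that differed in these receptors, although the members were left out of the genes used for clustering. In library L, 2 clusters with Il1b, Igfbp6 and Csf3r among their 10 leading genes (numbered 2 and 3) held 45.5% and 25.0% of vehicle neutrophil-like cells, a cluster led by stefin genes (6) 10.5%, a cluster led by the granule genes Ltf, Camp and Ngp (7) 13.3%, and a cluster led by Prok2 and Retnlg (9) 5.75%. Of the high dose cells, clusters 2 and 3 held 4.52% and 1.51%, and clusters 6, 7 and 9 held 56.3%, 27.1% and 10.6%.

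Clec4d was itself among the 10 leading genes of cluster 3, and its levels by cluster are a description. In vehicle cells it was at 421 and 424 CPM in clusters 2 and 3, at 118 and 108 CPM in clusters 6 and 9, and at 9.68 CPM in cluster 7. Clec4e ran from 416 and 404 CPM through 242 and 252 CPM to 86.1 CPM in the same order. Clec12a, Clec4a2 and Clec5a had the opposite order, with 41.7, 99.4 and 34.3 CPM in cluster 2 and 207, 231 and 88.8 CPM in cluster 7. Clec4a3 was at 87.3 and 55.6 CPM in clusters 2 and 3 and at 3.27 to 11.3 CPM in clusters 6, 7 and 9.

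Within clusters 6 and 7 of library L, Clec4d was not lower at the high dose. In cluster 6, the largest with high dose cells, Clec4d was at 118, 131 and 119 CPM and Clec4e at 242, 273 and 244 CPM in vehicle, low dose and high dose, and the high dose differed from vehicle by 0.013 [-0.25, 0.28] and 0.011 [-0.17, 0.20] on the log2 scale. In cluster 7, Clec4d was at 9.68, 14.8 and 15.0 CPM, and in cluster 9 at 108, 126 and 69.3 CPM, with differences of 0.63 [-0.14, 1.37] and -0.64 [-1.32, -0.015]. Clec4a3 in cluster 6 had 23, 8 and 3 UMIs, a ratio of -2.88 [-5.26, -1.16]. When the vehicle clusters of library L were weighted to the mix of clusters at the high dose, an alternative chosen after the data were seen, the log2 difference of Clec4d was -0.12, that of Clec4e 0.012 and that of Clec12a 0.13, while that of Clec4a3 remained at -2.43 and that of Clec4n at -1.67.

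Library S had a like order of clusters, and Clec4d in its cluster 1 was lower at the high dose. Its cluster led by Il1b and Ccrl2 (0) held 119, 187 and 4 cells of vehicle, low dose and high dose, and in vehicle it had 418 CPM of Clec4d and 873 CPM of Clec4e. The stefin cluster (1) had 166 and 333 CPM, the Ltf cluster (6) 44.1 and 156 CPM, and a cluster led by Retnlg and Wfdc17 (14) 263 and 347 CPM. A further cluster led by Bcl2l15, Orm1 and Saa1 (12) held 119 low dose cells and 2 of each other group. In cluster 1, Clec4d was at 166, 174 and 105 CPM, lower at the high dose by -0.66 [-1.11, -0.22] on the log2 scale, and in cluster 6 at 44.1, 38.6 and 33.7 CPM, a difference of -0.39 [-1.41, 0.58]. With the clusters weighted to the high dose mix, Clec4d differed by -0.57 and Clec4e by -0.24.

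**Figure D3:**
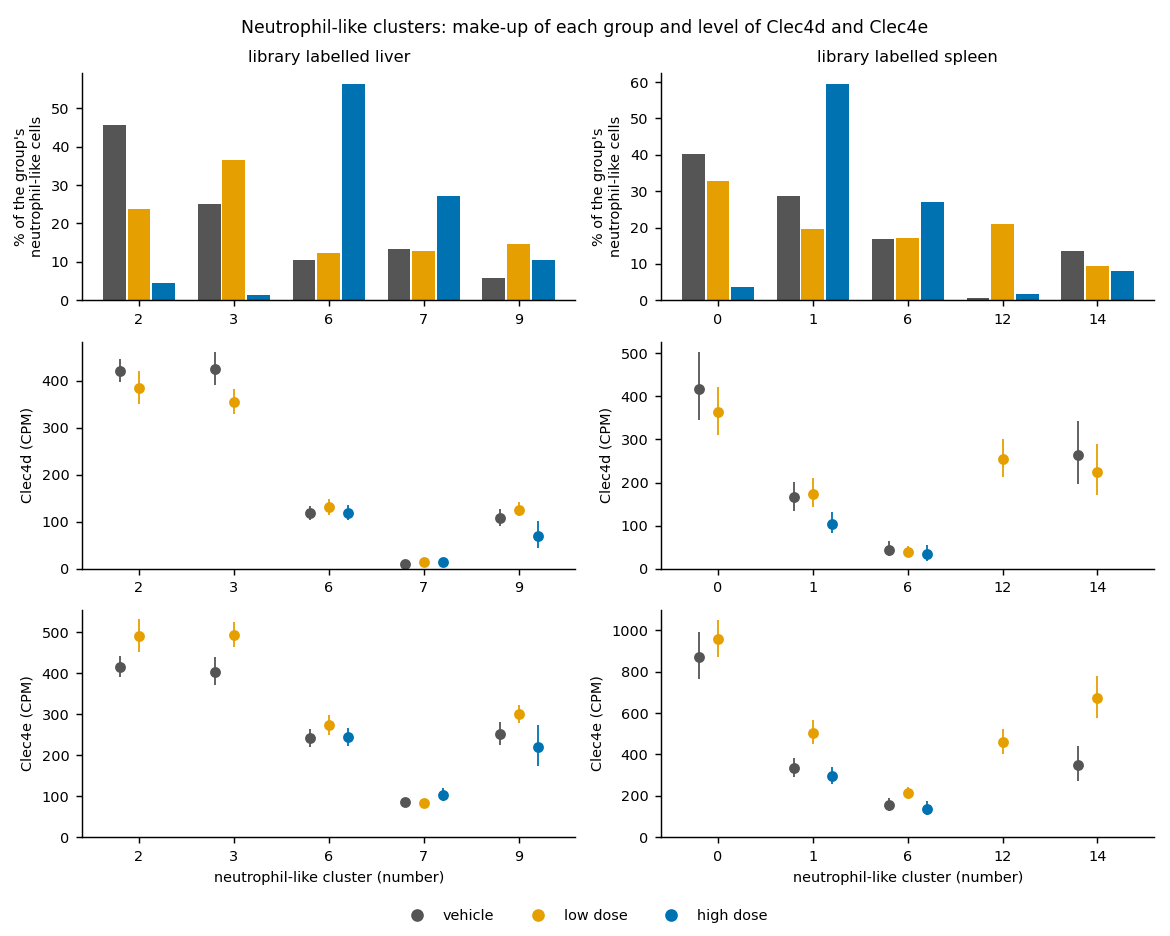
Neutrophil-like clusters of each library (x axis, numbered), with the percentage of each group's neutrophil-like cells they hold (top row) and the levels of Clec4d and Clec4e in CPM (lower rows) by hashtag group, with exact 95% Poisson intervals, drawn where a group had at least 20 cells in the cluster. In library L, the Il1b clusters 2 and 3, with 421 and 424 CPM of Clec4d in vehicle, hold few high dose cells, and cluster 6 has 118 CPM in vehicle and 119 CPM at the high dose.

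Counts of positive cells depended on depth. Before any correction, 66.7%, 63.9% and 59.3% of neutrophil-like cells of vehicle, low dose and high dose in library L had a Clec4d UMI, and 73.6%, 82.1% and 92.0% had a Clec4e UMI. With every cell thinned to 500 UMIs, which left out 0 cells, the shares were 14.8% [12.99, 16.7], 12.0% [10.2, 13.9] and 4.02% [1.75, 7.77] for Clec4d, and 15.8% [13.9, 17.8], 16.9% [14.9, 19.0] and 8.54% [5.06, 13.3] for Clec4e. The order of the Clec4e shares thus turned with thinning, in the direction of the CPM.

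In library S the thinned shares were 11.8%, 11.6% and 5.41% for Clec4d and 19.9%, 26.9% and 17.1% for Clec4e, and the intervals of vehicle and high dose overlapped for both. T cell-like cells of library L, with a median of 4401 to 4689 UMIs per cell by group, had a Clec4d UMI in 0% to 0.258% of cells after thinning and a Clec4e UMI in 0 of 387, 561 and 711 cells. Thinned Clec4a2 shares in library L were 4.42%, 8.003% and 10.6%, and thinned Clec12a shares 3.09%, 3.88% and 8.54%, both highest at the high dose.

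**Figure D4:**
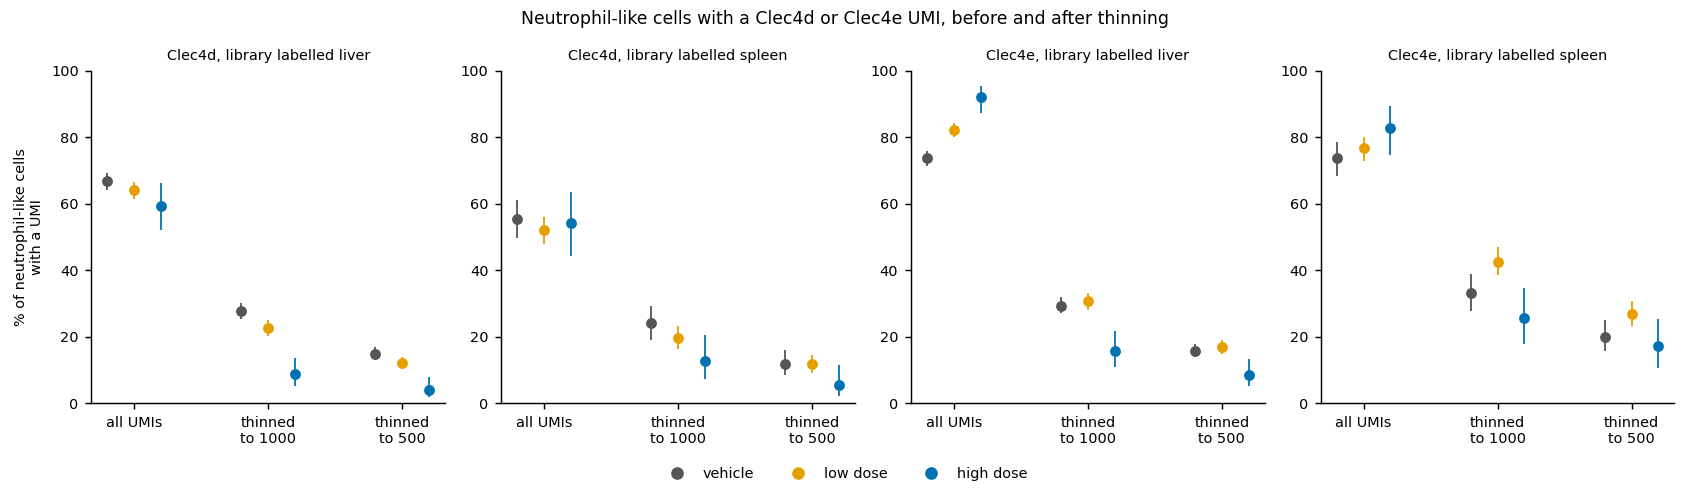
Percentage of neutrophil-like cells with at least 1 UMI of Clec4d or Clec4e (y axis) by hashtag group (color), with all UMIs and after thinning each cell to 1000 or 500 UMIs (x axis), 1 panel per receptor and library, with exact 95% binomial intervals. In library L the high dose is highest for Clec4e with all UMIs, at 92.0%, and lowest at 500 UMIs, at 8.54%.

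In monocyte-like cells, Clec4d and Clec4e were higher at the low dose than in vehicle. Clec4d was at 40.2, 68.4 and 46.3 CPM in vehicle, low dose and high dose monocyte-like cells of library L and at 51.6, 114 and 82.9 CPM in library S. Clec4e was at 86.0, 135 and 97.5 CPM and at 162, 288 and 129 CPM. The intervals of the low and high dose levels overlapped, except for Clec4e in library S. The log2 ratios of low dose to vehicle were 0.77 [0.41, 1.13] and 1.14 [0.60, 1.70] for Clec4d and 0.65 [0.40, 0.90] and 0.82 [0.51, 1.14] for Clec4e. Neutrophil markers in these cells summed to 11202, 14784 and 32317 CPM and to 17920, 15881 and 20571 CPM, and their part was not tested.

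At the low dose, 0 of 8 members in monocyte-like cells of library L and 1 of 8 in library S, Clec4d, were at least 2-fold higher than in vehicle, against 1.17% and 1.84% of genes, and 0 were at least 2-fold lower, against 1.04% and 0.582%. Clec4d in library S reached 50 UMIs through the low dose alone. In library L the ratio was also above 0 for Clec4a1, at 0.47 [0.27, 0.66], Clec4a2, at 0.27 [0.09, 0.45], and Clec4a3, at 0.53 [0.38, 0.68]. In library S the ratio of Clec4a2 was 0.44 [0.11, 0.78], that of Clec12a was -0.60 [-1.09, -0.12], and those of Clec4a1 and Clec4a3 were 0.034 and 0.053, with intervals that included 0.

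At the high dose, Clec4n was the 1 receptor whose interval lay above vehicle in monocyte-like cells of both libraries. It was at 47.9, 43.1 and 70.3 CPM in monocyte-like cells of library L and at 58.0, 81.1 and 147 CPM in library S, log2 ratios of high dose to vehicle of 0.55 [0.04, 1.04] and 1.34 [0.81, 1.90]. Of 8 members it alone was at least 2-fold higher, and only in library S, against 2.07% and 2.34% of genes, while 0 were at least 2-fold lower, against 5.18% and 1.21%. Clec4n in library S reached 50 UMIs through the high dose alone. In 1 library each, Clec4a3 was higher, by 0.33 [0.10, 0.56], and Clec4a2 lower, by -0.53 [-0.88, -0.20], in library L, and Clec4d was higher, by 0.68 [0.05, 1.32], and Clec4a1 lower, by -0.57 [-0.90, -0.24], in library S. The high dose groups held 26 and 40 monocyte-like cells. As a mean over cells, the Clec4n ratio in library L was 0.00.

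Macrophage-like cells of library S also had the most Clec4n at the high dose, with 254, 256 and 436 CPM in vehicle, low dose and high dose and a log2 ratio to vehicle of 0.78 [0.55, 1.01]. The class held 2 clusters there, one led by Arg1 and Ccl8 (3) and one led by Marco and Clec4f (17), and cluster 17 held 10.3%, 22.9% and 32.2% of its vehicle, low dose and high dose cells. Within cluster 3, Clec4n was at 252, 231 and 405 CPM, a ratio of high dose to vehicle of 0.68 [0.45, 0.93], and in cluster 17, with 6 vehicle cells, it was at 387 and 523 CPM at the low and high dose.

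Dendritic cell-like cells of library S had 84.1, 78.4 and 227 CPM of Clec4n, a ratio of 1.43 [0.71, 2.22], which was 1 of 2 members measured there, against 6.12% of genes higher and 3.52% lower. Clec4n in these cells reached 50 UMIs through the high dose alone. This class was 1 cluster with 3 of 11 dendritic cell markers raised. Its dendritic cell markers summed to 1880, 763 and 1211 CPM in vehicle, low dose and high dose, below its 12 macrophage markers in vehicle and low dose, at 2460, 2431 and 1175 CPM. Basophil or mast cell markers summed to 2229, 1801 and 169.6 CPM and erythroid markers to 19609, 27.0 and 21.2 CPM, and the part of these cells was not tested. At the low dose, 0 of 2 were past 2-fold, against 4.47% and 1.61%. In 6 high dose dendritic cell-like cells of library L, Clec4a2 alone was measured and was higher by 1.39 [0.49, 2.25] on the log2 scale, against 1.79% and 5.72%. In library S, Clec4n in endothelial cell-like and T cell-like cells moved the same way at low levels. It was at 11.5, 13.2 and 54.8 CPM and at 0, 24.3 and 50.9 CPM in vehicle, low dose and high dose. B cell-like cells of that library had 0 Clec4n UMIs. In hepatocyte-like cells all members summed to 223, 37.2 and 64.3 CPM, from 29, 3 and 17 UMIs, of which Clec4n was 20.7%, 0% and 29.4%. In unnamed cells they summed to 257, 161 and 70.9 CPM, from 52, 80 and 77 UMIs, of which Clec4n was 5.77%, 11.25% and 16.9%. Of the 40, 100 and 133 unnamed cells, 24, 60 and 117 were in a cluster (4) with 6 of 7 T cell markers raised. The part of free RNA was not tested. In macrophage-like cells of library L, Clec4n was at 452, 684 and 415 CPM, and the high dose differed from vehicle by -0.12 [-0.63, 0.37]. It was the 1 member measured there, against 2.69% of genes higher and 4.68% lower. At the low dose 3 were measured, of which Clec4a2 was at least 2-fold higher, at 109 CPM in vehicle and 286 CPM at the low dose, against 4.3% and 1.12%. Clec4a2 reached 50 UMIs there through the low dose alone.

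Clec4d and Clec4e in macrophage-like cells were highest at the low dose in both libraries. In library S, Clec4d was at 59.7, 137 and 72.6 CPM and Clec4e at 37.6, 105 and 51.1 CPM, log2 ratios of low dose to vehicle of 1.20 [0.73, 1.70] and 1.48 [0.90, 2.11], which were 1.40 and 1.595 within cluster 3. These were 2 of 8 members at least 2-fold higher, against 2.58% of genes, and 0 were at least 2-fold lower, against 0.77%. Both reached 50 UMIs through the low dose alone. In library L, Clec4d had 0, 6 and 1 UMIs and Clec4e 0, 18 and 1 UMIs, and only for Clec4e did the low dose interval not overlap those of the other groups. Neutrophil markers in the macrophage-like cells summed to 1024, 5631 and 5972 CPM and to 1644, 6726 and 1719 CPM in libraries S and L, with 1, 0 and 0 and with 2, 1 and 5 of 10 markers at 0, and their part was not tested.

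The Clec4e ratio at the low dose in library S depended on the processing: it was 0.36 with a coarser clustering and 3.45 with another hashtag caller. With that caller, the macrophage-like class of library S was also clustered anew and held 64, 105 and 298 cells of vehicle, low dose and high dose. At the high dose in that library, 0 of 8 members were past 2-fold, against 3.7% of genes higher and 1.11% lower. Clec4a1 was at 206, 210.5 and 144 CPM and Clec4a3 at 215, 199 and 172 CPM, with ratios of high dose to vehicle of -0.52 [-0.80, -0.24] and -0.32 [-0.59, -0.05], which turned to 0.76 and 1.14 with the coarser clustering. The coarser clustering gave a Clec4n ratio of 1.80 and changed the class from 58, 109 and 121 cells to 84, 132 and 91 cells of vehicle, low dose and high dose.

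**Figure D5:**
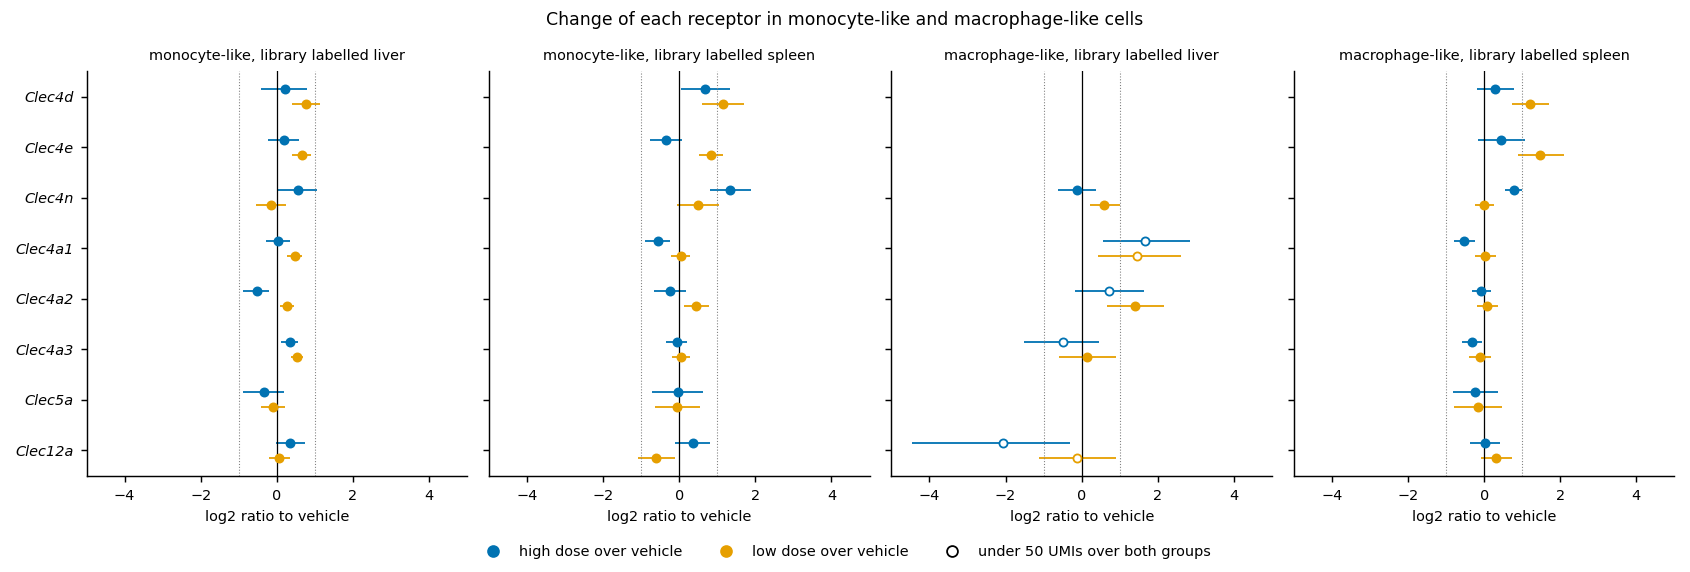
Log2 ratio to vehicle (x axis) of each receptor (y axis) in monocyte-like and macrophage-like cells at the low and high dose (color), 1 panel per class and library, with exact 95% intervals as bars. Clec4d and Clec4e lie above 0 at the low dose in monocyte-like cells of both libraries, and Clec4n lies above 0 at the high dose in 3 of the 4 panels.

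Clec12a, Clec4a2 and Clec5a lay below vehicle at the high dose in progenitor-like cells of library L and above it in those of library S. Clec12a was at 234, 164 and 122 CPM in vehicle, low dose and high dose in library L and at 188, 162 and 248 CPM in library S. Clec4a2 was at 181, 158 and 82.6 CPM and at 127, 96.1 and 151 CPM, and Clec5a at 101, 107 and 69.3 CPM and at 113, 91.8 and 148 CPM. Marker genes moved as well, and their part was not tested. In library L, the neutrophil markers of these cells summed to 202222, 181061 and 96269 CPM, the erythroid markers to 428, 1387 and 3480 CPM and the T cell markers to 99.9, 155 and 482 CPM. In library S, the neutrophil markers summed to 126756, 94663 and 178889 CPM and the monocyte markers to 793, 702 and 234 CPM.

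Of 5 and 4 members measured, 1 and 0 were at least 2-fold lower at the high dose, Clec4a2, against 0.609% and 7.08% of genes, and 0 were at least 2-fold higher, against 10.8% and 0.828%. At the low dose 0 of 5 and 0 of 7 members were past 2-fold, against 0.96% and 1.73% of genes higher and 0.253% and 0.379% lower.

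The progenitor-like class had 2 clusters per library, and their mix also differed. In library L, a cluster led by Elane, Prtn3 and Fcnb (11) held 73.5% of vehicle and 36.2% of high dose progenitor-like cells, and a cluster led by Car2, Myb and Cdk6 (17) held 26.5% and 63.8%. Cluster 17 had 4 of the 6 granulocyte progenitor markers raised but 0 of them among its 10 leading genes, so most high dose cells of this class in library L came from a cluster whose leading genes hold no marker of the class. In vehicle, Clec12a was at 293 and 69.2 CPM in these clusters, Clec4a2 at 243 and 6.22 CPM and Clec5a at 127 and 26.4 CPM. In library S, the cluster led by Camp, Cebpe and Fcnb (9), with 230.0 CPM of Clec4a2 in vehicle, held 49.6% of vehicle and 76.3% of high dose cells. Within cluster 11, Clec12a differed between high dose and vehicle by -0.18 [-0.35, -0.02], and within cluster 9 by 0.082 [-0.18, 0.34] on the log2 scale. Clec4a2 was lower at the high dose within both, by -0.28 [-0.47, -0.10] and -0.29 [-0.56, -0.026].

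Libraries L and S were also compared within a class. Of 8 members in vehicle neutrophil-like cells, Clec4a3 was at least 2-fold higher in library L, 30.4 against 6.55 CPM, against 5.95% of 7227 genes, and 0 were at least 2-fold lower, against 2.53%. The level in library S is one not told apart from background above, so no size is given for this difference. Clec4d was at 174 and 173 CPM, a log2 ratio of library L to library S of 0.002 [-0.18, 0.18]. Clec4e was higher in library S, by a ratio of -0.59 [-0.72, -0.46], and Clec12a in library L, by 0.52 [0.28, 0.77]. When cells with few genes or over 10% mitochondrial UMIs were left out, which took the vehicle neutrophil-like cells of library S from 296 to 192, the ratio of Clec4d was 0.43 and that of Clec4e -0.15, and Clec4n went from -0.28 to 3.48 and Clec4a1 from -0.81 to 0.66. With the coarser clustering the ratio of Clec4d was 0.70, and Clec12a turned to -0.27.

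In neutrophil-like cells of the low and high dose, 0 of 8 and 0 of 5 members were past 2-fold between the libraries, against 3.51% and 1.57% of genes higher in library L and 2.99% and 3.99% lower. In macrophage-like cells of vehicle, Clec4a1 and Clec4a2 were lower in library L, by ratios of -1.92 [-2.95, -1.04] and -1.05 [-1.76, -0.40], which were 2 of 5 members, against 18.5% of genes lower and 6.72% higher. Both reached 50 UMIs through library S alone. In progenitor-like cells, 1 of 6 members was past 2-fold, against 4.27% of genes lower and 1.09% higher. It was Clec4a3, at 4.26 CPM in library L and 11.6 CPM in library S. The level in library S lay below that of its T cell-like cells and was not told apart from background. No member of the 8 measured in monocyte-like cells and the 1 measured in dendritic cell-like cells was past 2-fold, against 9.5% and 10.1% higher and 2.59% and 7.85% lower. Clec4a1 in monocyte-like cells came closest, by -0.98 [-1.20, -0.75], with 151 and 298 CPM.

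Sums over all assigned cells also held the change in the mix of cells. In library L, Clec4d was at 86.3, 79.4 and 21.9 CPM in vehicle, low dose and high dose, a log2 ratio of high dose to vehicle of -1.98 [-2.14, -1.82], and 5 of 8 members were at least 2-fold lower, against 4.33% of genes, and 0 at least 2-fold higher, against 8.21%. In library S, Clec4e was at 129, 193 and 53.5 CPM, a ratio of -1.27 [-1.43, -1.12], and Clec4n at 43.6, 52.8 and 118 CPM, a ratio of 1.43 [1.25, 1.62]. These were the only members past 2-fold there, against 1.57% of genes lower and 12.8% higher. At the low dose, 0 of 8 members were past 2-fold in either library, against 0.749% and 2.89% higher and 0.68% and 0.418% lower. In such sums fewer neutrophil-like cells and less RNA per cell cannot be told apart.

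Genes of the same signaling route were described as lists. Of 10 adaptors and proximal kinases, all were measured in high dose and vehicle neutrophil-like cells of each library, and 0 were past 2-fold. Fcer1g, the gamma chain that Clec4d, Clec4e and Clec4n need, had log2 ratios of -0.28 [-0.32, -0.24] and -0.09 [-0.18, -0.003], Tyrobp -0.26 and -0.24, and Hcst -0.84 [-0.97, -0.71] and -0.81 [-1.07, -0.55]. Syk, the kinase downstream, had -0.59 [-0.76, -0.42] and -0.22 [-0.55, 0.10]. The medians of the list were -0.27 and -0.01, beside the medians over all genes given above.

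Of 7 genes of the CARD9 complex and NF-kB, 6 and 5 were measured and 0 were past 2-fold, with Card9 at -0.37 and 0.013, Rela at -0.84 and -0.85, and Nfkb1 at 0.003 and 0.31. The 3 phosphatases bound by inhibitory motifs were within 2-fold, with Ptpn6 at -0.34 and 0.05. Of 10 genes induced through these receptors, 5 and 4 were measured, of which 3 were at least 2-fold lower in each library, against 13.2% and 4.77% of all genes. They were the chemokine gene Cxcl2, at -1.36 [-1.57, -1.15] and -1.74 [-1.81, -1.68], the inflammasome sensor gene Nlrp3, at -1.99 and -1.85, and the cyclooxygenase gene Ptgs2, with 54 UMIs in vehicle and 0 at the high dose in library L and a ratio of -1.92 in library S. Ptgs2 in library L reached 50 UMIs through vehicle alone, and its 0 was counted as 3 UMIs. Cxcl2 was among the 10 leading genes of cluster 0 of library S, which held 40.2% of vehicle and 3.60% of high dose neutrophil-like cells. The ratios of all these lists are over the whole class and were not taken within clusters, so the mix of clusters was not held equal. At the low dose, Tnf in library S, 1 of 5 measured there, was the 1 gene of these lists past 2-fold in neutrophil-like cells, against 1.33% of all genes higher.

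Among 3 genes known to regulate Clec4e, Nfil3 was at -1.48 [-1.75, -1.22] and -1.13 [-1.50, -0.77], Cebpb at -0.40 and -0.83, and Irf5 at -1.19 [-2.38, -0.17] in library L, where 2 of 3 were at least 2-fold lower, against 13.2% of all genes. In library S, 1 of the 2 measured was, against 4.77%. Irf5 had 7 UMIs in vehicle and 2 at the high dose of library S. These ratios too are over the whole class, with the mix of clusters not held equal. Of 15 other lectin genes, only Clec1a was measured, with 62 UMIs in vehicle and 1 at the high dose of library L, a ratio of -4.38 [-9.71, -1.85]. It reached 50 UMIs through vehicle alone.

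Levels over 49 sums of class, group and library were compared with those of 10689 genes by Pearson's r of log2(CPM + 10), as a description, since the sums share libraries, cell classes and depth. Clec4d was most like Tarm1 (r = 0.899), C5ar1 and Mmp8, and Clec4e most like Csf3r (r = 0.934), Mmp8 and Il1r2. Clec4n was most like Csf1r (r = 0.921), followed by Aif1. Clec4a1 and Clec4a3 were each other's nearest gene (r = 0.969), followed by Csf1r for Clec4a1 and Mpeg1 for Clec4a3. Clec4a2 was most like Igsf6 (r = 0.946), Clec5a most like Trem3 (r = 0.938), and Clec12a most like F630028O10Rik (r = 0.925), followed by Gpx1 (r = 0.917) and Clec4a2 (r = 0.911). Among the members, r was 0.871 for Clec4d and Clec4e and lowest, 0.0936, for Clec4n and Clec5a.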

How the data were processed

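The deposited files held filtered counts of UMIs per gene and cell and hashtag counts for 2 libraries, made by the authors with Cell Ranger (5.0.0 in the matrix headers, 6.0.0 in the submitters' processing notes) on mm10. Members and gene lists were chosen with earlier results of these data known. Cells were assigned to hashtags with HTODemux (Seurat 5.3.0, quantile 0.99) in R 4.3.3, and doublets of 2 hashtags and cells without one were left out. Each library was normalized with SCTransform (sctransform 0.4.2) and clustered on 30 components at resolution 0.8, with the members and the listed genes taken out of the 3000 variable genes. No other filter on cells was used. Clusters were named from marker lists, with at least 3 markers raised. UMIs were summed per class, group and library. Members named in the text are all listed symbols, and a ratio was counted at 50 UMIs over both sides. Each group was 1 pooled sample per library, so no test was made. Total counts were 79585807 and 35672251 UMIs. The interval step was checked on simulated data that held counting error only, so the check does not cover spread between cells. Alternatives were hashtag callers, a cell filter, clustering choices, scaling, Scrublet (scanpy 1.11.5) and thinning.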

Additional observations from a re-analysis of the deposited data

Results flagged for a closer look

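In granulocyte progenitor-like cells, 3 members lay on opposite sides of vehicle at the high dose in the 2 libraries, with intervals that exclude 0 on each side; the difference between the libraries was not tested. The log2 ratio of high dose to vehicle was -1.13 [-1.31, -0.96] for Clec4a2 in library L and 0.26 [0.01, 0.50] in library S. For Clec5a it was -0.54 [-0.75, -0.33] and 0.38 [0.13, 0.64], and for Clec12a -0.95 [-1.10, -0.80] and 0.40 [0.20, 0.60]. These were 3 of 41 member, class and dose combinations measured in both libraries, and in 10 the intervals lay on the same side. With another hashtag caller the ratios were -0.30, 0.05 and -0.19 in library L and -0.04, 0.13 and 0.15 in library S. Cells were clustered anew with that caller, and the class itself changed. In vehicle, low dose and high dose it went from 147, 136 and 116 to 108, 95 and 42 cells in library L. In library S it went from 131, 135 and 59 to 144, 180 and 115 cells. With the vehicle clusters weighted to the high dose mix, they were -0.31, 0.04 and -0.39, and -0.26, 0.14 and 0.30.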

How the results depend on the processing

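The high dose ratios in neutrophil-like cells depended most on the mix of clusters and on the dose groups pooled; all values are log2 ratios to vehicle unless said otherwise. In library L, Clec4d (-1.22) was -1.88 as a mean over cells, -0.34 with both doses combined, 0.013, 0.63 and -0.64 in clusters 6, 7 and 9 alone, and -0.12 with vehicle clusters weighted to the high dose mix. Clec4e (-0.35) was -0.82, 0.10, 0.011, 0.26, -0.20 and 0.012 in the same order, and -0.48 at resolution 0.4. In library S, Clec4d (-1.02) was -0.24 with both doses combined, -0.66 and -0.39 in clusters 1 and 6 alone, and -0.57 with the weighting. Clec4e (-0.62) was 0.17, -0.17, -0.19 and -0.24 in the same order, -0.96 as a mean over cells and -0.25 with the filter on cells.

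The count of members at least 2-fold lower went from 4 to 0 with both doses combined and to 3 with the weighting in library L. In library S it went from 1 to 0 with both doses combined, the weighting, the filter on cells (Clec4d at -0.81), log-normalization or the 20 most abundant genes left out (-0.97 in each). In clusters alone of library L, Clec4n was 1.76 and Clec4a3 1.35 in cluster 9, and Clec4a1 0.056 in cluster 6, each from 3 UMIs or fewer at the high dose. The difference in share between high dose and vehicle for Clec4d went from -10.8 percentage points to -18.9 at 1000 UMIs and -7.39 without thinning, and for Clec4e from -7.24 to -13.6 and 18.3. In library S it went for Clec4d from -6.42 to -11.2 and -1.35, and for Clec4e from -2.82 to 9.23 without thinning. The cause was not tested.

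Of 990 alternative member ratios, 839 stayed within the interval of the main value, 146 lay outside it, and 5 more turned from a 2-fold difference to the other sign. The share differed by alternative. In clusters alone, 8 stayed, 20 lay outside and 5 turned. With the weighting, 13 stayed and 17 lay outside, and with both doses combined 24 stayed and 23 lay outside. Scrublet marked 248 barcodes of library L and 1 of the other, where it was no check. No paired analysis was possible because each group was 1 pooled sample per library and no result came from a test. Classes with few cells, dendritic cell-like and high dose monocyte-like, limit what depth can show.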
